A study of Mus musculus with 12 samples.

Results

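The chemokine genes Ccl2, Ccl7, Ccl12, Ccl3, Ccl4, Ccl5, Ccl9, Cxcl2, Cxcl10 and Cxcl16 were examined in RNA-seq libraries of mouse microglial cells with and without knockdown of Anxa2. They were chosen by gene name, with earlier results of these data known, and are 10 of the 21834 protein-coding genes in the deposited count table. The cells were BV2, an immortalized mouse microglial line, in which a lentiviral shRNA construct had been stably integrated and selected with puromycin. The construct carried either a control shRNA, in the shCtrl line, or an Anxa2 shRNA, in the shAnxa2 line. Each shRNA was represented by 1 stable line, so an effect of the knockdown and a difference between the lines cannot be told apart. Cells of both lines were left untreated (CTRL) or taken through oxygen-glucose deprivation and reoxygenation (OGD/R), a culture model of ischemia and reperfusion. The labels give 4 h of deprivation in 1% O2 without glucose and 12 h of reoxygenation, while the study's methods describe a longer reoxygenation for BV2 cells. The groups shCtrl-CTRL, shCtrl-OGDR, shAnxa2-CTRL and shAnxa2-OGDR had 3 libraries each. The study's methods call them biological replicates, each made of technical ones, without saying how the cultures were kept apart, and the p-values measure the spread between these libraries.

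Libraries were grouped by their titles, because a second label assigned the knockdown by treatment. Anxa2 followed the titles, with 3938 to 4806 counts in shCtrl-CTRL, 5685 to 7717 in shCtrl-OGDR, 715 to 1052 in shAnxa2-CTRL and 357 to 505 in shAnxa2-OGDR. No gene was used to check which libraries had undergone OGD/R, so the treatment rests on the labels and column names alone. Total counts ranged from 19521877 to 27288843 per library. All 11 microglia and macrophage markers were expressed, with a summed level of 1714 to 2147 CPM, the unit of counts scaled to the library total, whereas summed markers of neurons, astrocytes, endothelial cells, T cells and fibroblasts stayed at or below 2.09 CPM. The oligodendrocyte markers summed to 3.97 to 6.20 CPM with Mog at 0. The OGD/R changes of the lines share no library, and across all 11626 genes tested their Pearson and Spearman correlations were both −0.80. Of 5240 genes called in both lines, 5165 changed in opposite directions. These values are across genes, which are not independent replicates. Anxa2 itself rose by 0.70 on the log2 scale with OGD/R in shCtrl cells and fell by 1.04 in shAnxa2 cells. The median absolute log2 difference over all genes was 0.17 between shAnxa2-OGDR and shCtrl-CTRL and 0.18 between shAnxa2-CTRL and shCtrl-OGDR, against 0.24 to 0.35 in the comparisons of 1 treatment or 1 line. Whether CTRL and OGDR are exchanged for 1 line was not tested. An exchange would turn the sign of every OGD/R change of that line and alter the comparisons between the lines and the interactions below.

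Chemokines are small secreted proteins that draw leukocytes along a gradient by binding G protein-coupled receptors. In the brain, microglia are a main source of them after ischemia, and the CC chemokines that bind CCR2 recruit monocytes, other CC chemokines attract macrophages and T cells, and CXC chemokines act on neutrophils or on activated T cells. Many chemokine genes are induced by the transcription factor NF-κB, some together with AP-1 or with interferon-regulated factors, and their mRNAs are short-lived.

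Promoter sequences of Cxcl2, Ccl9 and Cxcl10 are shown because Cxcl2 had the largest difference of the 10 genes between the lines, Ccl9 fell after OGD/R in both lines, and Cxcl10 is a classical interferon-inducible gene. Each run holds the 250 bases before the transcription start in RefSeq on GRCm38.p6, 5′ to 3′ on the strand of the gene, with capitals for matches to the motifs searched. The windows are chr5:90903649-90903898 on the plus strand for Cxcl2, chr11:83578637-83578886 on the minus strand for Ccl9 and chr5:92348890-92349139 on the minus strand for Cxcl10.
Cxcl2: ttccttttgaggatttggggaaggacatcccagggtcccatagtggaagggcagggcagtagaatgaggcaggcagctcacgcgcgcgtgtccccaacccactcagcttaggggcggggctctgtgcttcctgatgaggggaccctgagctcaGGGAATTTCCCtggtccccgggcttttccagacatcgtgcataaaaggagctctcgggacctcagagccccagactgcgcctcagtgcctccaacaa
Ccl9: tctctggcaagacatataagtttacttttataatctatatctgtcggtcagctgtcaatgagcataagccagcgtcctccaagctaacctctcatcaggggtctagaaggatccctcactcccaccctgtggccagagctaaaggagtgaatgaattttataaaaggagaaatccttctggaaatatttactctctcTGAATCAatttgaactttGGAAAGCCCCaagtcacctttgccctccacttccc
Cxcl10: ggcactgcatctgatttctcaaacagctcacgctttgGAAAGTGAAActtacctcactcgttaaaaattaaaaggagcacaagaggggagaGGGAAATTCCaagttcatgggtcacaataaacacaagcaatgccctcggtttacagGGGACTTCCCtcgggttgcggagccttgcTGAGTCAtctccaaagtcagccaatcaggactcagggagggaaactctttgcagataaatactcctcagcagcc

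The motifs were the NF-κB consensus, AP-1 (TGANTCA) and the interferon-stimulated response element (ISRE), on both strands. In Cxcl2 the capitals cover 2 overlapping NF-κB matches on opposite strands, from −97 to −87 relative to the start. Cxcl10 has an ISRE match from −213 to −204, NF-κB matches from −159 to −150 and from −103 to −94, and an AP-1 match from −74 to −68. Ccl9 has an AP-1 match from −53 to −47 and an NF-κB match on the opposite strand from −35 to −26. The AP-1 matches read the same on both strands. Of 32841 promoter windows of this length, 3.9% hold the NF-κB consensus, 6.75% AP-1 and 2.98% ISRE. A window was matched for 5 of the 10 genes, and those of Ccl12 and Ccl3 hold none of the 3 motifs. A match describes letters only and was not set against binding.

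The genes lie in few places. In mm39, Ccl2 (chromosome 11, 81926397 to 81928279), Ccl7 (81936538 to 81938351) and Ccl12 (81992671 to 81994226) are neighbors on the plus strand. Ccl11, between Ccl7 and Ccl12, and Ccl8, beyond Ccl12, had 0 counts in all 12 libraries. A second group on chromosome 11 holds Ccl5 (83416604 to 83421344), Ccl9 (83463745 to 83469462), Ccl3 (83538670 to 83540181) and Ccl4 (83553410 to 83555509), of which Ccl4 is on the plus strand and the others on the minus strand. Cxcl16 is on the minus strand of chromosome 11 (70344809 to 70350810). Cxcl2 (chromosome 5, 91051730 to 91053797) is on the plus strand beside Cxcl1, Cxcl3 and Cxcl5, which had totals of 13, 4 and 1 counts over the 12 libraries. Pf4, which lies between Cxcl5 and Cxcl3, had a total of 5311 counts. Cxcl10 (92494497 to 92496748) is on the minus strand of chromosome 5.

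Counts differed widely between the genes. Ccl4 had 2739 to 6613 counts per library, Ccl3 1829 to 4317 and Ccl2 762 to 4646. Ccl9 followed with 220 to 752, Ccl7 with 91 to 467 and Cxcl2 with 24 to 693. Counts were low for Cxcl10 (25 to 56), Cxcl16 (13 to 29), Ccl12 (2 to 32) and Ccl5 (6 to 18), and small differences were not detectable for these 4 genes at this depth. All 10 genes passed the filter, a minimum of 0.5 CPM in 3 or more libraries. Ccl5 reached 0.5 CPM in 7 libraries and Ccl12 in 9. On a per-length scale, taken as mean CPM per kilobase of annotated exons (retained introns included), Ccl4 was highest in every group, from 205 in shCtrl-OGDR to 369 in shAnxa2-CTRL. Ccl3 (112 to 224) and Ccl2 (33.7 to 143) came next, and Cxcl10, Ccl5 and Cxcl16 stayed below 1 CPM per kilobase in each group. The length used spans the whole gene for Cxcl2 and Cxcl10, at 2068 and 2252 bases, but not for Ccl4, at 660. Ranks between genes on this scale therefore depend on the annotation.

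**Figure D1:**
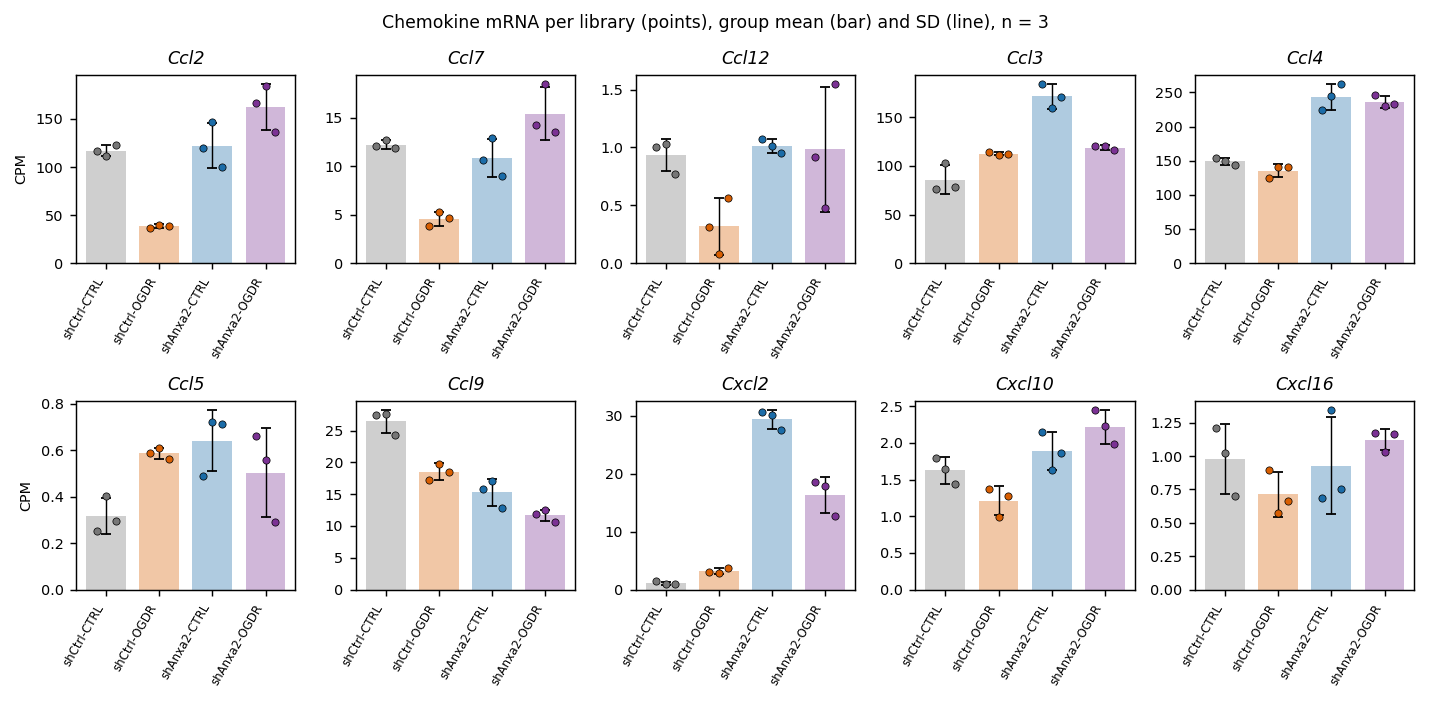
Level of each chemokine mRNA in CPM (vertical axis, linear from 0) in the 4 groups, with points for libraries, bars for group means and lines for the SD (n = 3). The shCtrl-OGDR libraries are lowest for Ccl2 and Ccl7, at 36.1 to 40.0 and 3.83 to 5.27 CPM, and Cxcl2 is higher in both shAnxa2 groups than in both shCtrl groups.

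The first comparison asked how OGD/R changed the chemokines in control cells. The CCR2 ligands Ccl2, Ccl7 and Ccl12 fell by 1.61, 1.42 and 1.63 on the log2 scale, while Cxcl2, a neutrophil attractant, rose by 1.55. By the quasi-likelihood test of edgeR, with p-values adjusted over all genes by Benjamini-Hochberg, 2 of the 10 genes rose, 5 fell and 3 did not pass an adjusted p of 0.05. Of all genes tested, 63.4% passed in either direction, 32.4% higher and 31% lower. In bulk RNA, fewer expressing cells and less RNA per cell cannot be told apart. With a change of at least 2-fold in addition, 1 rose and 3 fell, against 4.65% and 2.08% of all genes. The median log2 fold change was −0.43 over the 10 genes and 0.0045 over all genes. In shAnxa2 cells, OGD/R raised Ccl2 and Ccl7 by 0.42 and 0.53 and lowered Cxcl2, Ccl3 and Ccl9 by 0.84, 0.53 and 0.38 on the log2 scale. There 2 genes rose, 3 fell and 5 did not pass, where 55% of all genes passed, 28.2% higher and 26.8% lower. None of the 10 reached 2-fold, against 0.809% of all genes higher and 2.74% lower. The median was −0.060 over the 10 genes and 0.0044 over all genes.

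The lines were then compared at the same treatment. Without OGD/R, Cxcl2, Ccl5, Ccl3 and Ccl4 were higher in shAnxa2 cells by 4.75, 1.01, 1.00 and 0.71 on the log2 scale, and Ccl9 was lower by 0.80. Here 4 genes were higher, 1 was lower and 5 did not pass, where 59.2% of all genes passed in either direction, 29.5% higher and 29.7% lower. Cxcl2 and Ccl5 were at least 2-fold higher and none was 2-fold lower, against 3.84% and 1.83% of all genes. The median was 0.17 over the 10 genes and 0.00069 over all genes. After OGD/R, 6 genes were higher in shAnxa2 cells, 1 was lower and 3 did not pass, where 67.9% of all genes passed, 33.8% higher and 34.2% lower. Cxcl2, Ccl2, Ccl7 and Ccl12 were at least 2-fold higher and none was 2-fold lower, against 3.66% and 6.43% of all genes. The median was 0.84 over the 10 genes and −0.0033 over all genes. The summed microglia markers also moved with the line, at 1948 to 2147 CPM in shCtrl and 1714 to 1818 CPM in shAnxa2 libraries. Single markers went both ways. Of the 11, 2 were higher and 5 lower in shAnxa2 cells without OGD/R, and 3 higher and 6 lower after it. These stand beside the 59.2% and 67.9% of all genes that passed. Tmem119, for instance, had means of 1.87 CPM in shCtrl-OGDR and 10.3 CPM in shAnxa2-OGDR. The part of these markers in the differences was not tested.

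**Figure D2:**
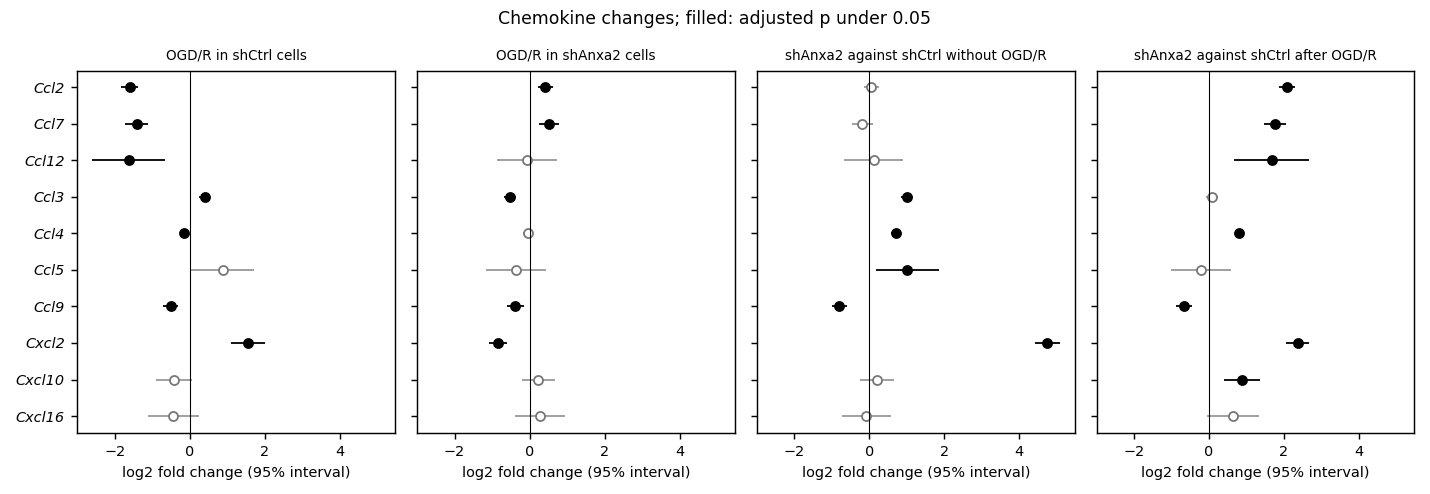
Log2 fold change of each chemokine (horizontal axis) in the 4 pairwise comparisons, with 95% intervals as lines and filled points for an adjusted p under 0.05 by edgeR. The CCR2 ligands lie left of 0 for OGD/R in shCtrl cells, at −1.61, −1.42 and −1.63, and right of 0 between the lines after OGD/R, at 2.08, 1.76 and 1.67.

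Ccl2 encodes the main ligand of CCR2 and recruits monocytes. Its level was 117, 111 and 123 CPM in shCtrl-CTRL and 36.1, 40.0 and 39.0 CPM in shCtrl-OGDR. In shAnxa2 cells, 119, 146 and 99.9 CPM were measured in shAnxa2-CTRL and 167, 185 and 137 CPM in shAnxa2-OGDR. The 3 shCtrl-OGDR libraries lay below all 9 others, and the shAnxa2 groups overlapped. OGD/R lowered Ccl2 3.05-fold in shCtrl cells (log2 fold change −1.61, standard error 0.104, adjusted p = 2.45e-12, edgeR). It raised Ccl2 1.34-fold in shAnxa2 cells (0.42, standard error 0.0959, adjusted p = 6.78e-04, edgeR). Without OGD/R the lines did not pass the test, with a log2 difference of 0.056 and a 95% interval from −0.14 to 0.25. After OGD/R, Ccl2 was 4.24-fold higher in shAnxa2 cells (adjusted p = 1.48e-14, edgeR). The OGD/R changes of the lines differed by 2.03 on the log2 scale (standard error 0.141, adjusted p = 4.97e-12 for the interaction, edgeR). The summed endothelial markers, at most 2.09 CPM, also moved this way, from 1.58 to 1.72 CPM in shCtrl-CTRL to 0.458 to 0.978 in shCtrl-OGDR, and from 0.587 to 1.23 in shAnxa2-CTRL to 1.67 to 2.09 in shAnxa2-OGDR. The sum followed Cdh5, at means of 1.21, 0.211, 0.504 and 1.63 CPM in shCtrl-CTRL, shCtrl-OGDR, shAnxa2-CTRL and shAnxa2-OGDR. Means of Pecam1 went the other way, at 0.293, 0.455, 0.439 and 0.277 CPM, and Cldn5 had 0 to 4 counts. The part of these genes was not tested.

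Ccl7, a second CCR2 ligand that also binds other CC receptors, moved like its neighbor Ccl2. It was at 12.1, 12.7 and 11.9 CPM in shCtrl-CTRL, 3.83, 5.27 and 4.66 CPM in shCtrl-OGDR, 10.6, 12.9 and 9.01 CPM in shAnxa2-CTRL and 14.3, 18.6 and 13.5 CPM in shAnxa2-OGDR. All shCtrl-OGDR libraries were again below the other 9, and the shAnxa2-OGDR libraries were above all the rest. OGD/R lowered Ccl7 2.67-fold in shCtrl cells (adjusted p = 8.95e-09, edgeR) and raised it 1.44-fold in shAnxa2 cells (adjusted p = 0.00145, edgeR). After OGD/R it was 3.39-fold higher in shAnxa2 cells, and the interaction was 1.94 on the log2 scale (standard error 0.196, adjusted p = 4.04e-09, edgeR). Over the 12 libraries, log2(CPM + 0.1) of Ccl2 and Ccl7 had a Pearson correlation of 0.98, the group differences included.

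Ccl12 is the third CCR2 ligand, a mouse gene related to Ccl2. It had 24, 28 and 21 counts in shCtrl-CTRL, 8, 2 and 11 in shCtrl-OGDR, 22, 21 and 24 in shAnxa2-CTRL and 18, 12 and 32 in shAnxa2-OGDR. The counts were lowest in shCtrl-OGDR, with 0.0763 to 0.563 CPM, and shAnxa2-OGDR spread from 0.477 to 1.55 CPM. OGD/R lowered Ccl12 3.10-fold in shCtrl cells, with a standard error of 0.475 on the log2 scale (adjusted p = 0.00442, edgeR). After OGD/R it was 3.19-fold higher in shAnxa2 cells (adjusted p = 0.00401, edgeR), although the groups overlapped in CPM. Without shAnxa2-OGDR replicate 3 this difference was 1.16 on the log2 scale and no longer passed (adjusted p = 0.0575, edgeR). The interaction of 1.56 (adjusted p = 0.0291, edgeR) was lost without any 1 of 4 libraries. These were shCtrl-CTRL replicate 2, shCtrl-OGDR replicates 1 and 2 and shAnxa2-OGDR replicate 3, with values of 1.46, 1.58, 1.05 and 1.04.

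Among the other CC chemokines, Ccl3 and Ccl4, also called MIP-1α and MIP-1β, were both higher in untreated shAnxa2 cells. Ccl3 was at 76.4, 103 and 77.9 CPM in shCtrl-CTRL, 114, 111 and 113 CPM in shCtrl-OGDR, 185, 159 and 171 CPM in shAnxa2-CTRL and 120.3, 120.2 and 116 CPM in shAnxa2-OGDR. The untreated groups were the lowest and the highest, and the OGD/R groups lay between them. OGD/R raised Ccl3 1.31-fold in shCtrl cells (adjusted p = 9.91e-05, edgeR) and lowered it 1.44-fold in shAnxa2 cells (adjusted p = 2.35e-06, edgeR). Untreated shAnxa2 cells had more Ccl3 than untreated shCtrl cells, by 1.00 on the log2 scale (adjusted p = 7.32e-11, edgeR). After OGD/R the difference was 0.078 on the log2 scale, with a 95% interval from −0.080 to 0.24 (adjusted p = 0.375, edgeR). The interaction was −0.92 (standard error 0.108, adjusted p = 4.59e-08, edgeR).

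Ccl4, which attracts macrophages and T cells, was higher in shAnxa2 cells at both treatments. It was at 154, 150.2 and 144 CPM in shCtrl-CTRL, 124, 141 and 140.3 CPM in shCtrl-OGDR, 224, 244 and 263 CPM in shAnxa2-CTRL and 246, 229.8 and 233 CPM in shAnxa2-OGDR. The lowest shAnxa2 library, at 224 CPM, was above the highest shCtrl library, at 154 CPM. The difference between lines was 1.63-fold without OGD/R (adjusted p = 3.15e-10, edgeR) and 1.75-fold after it (adjusted p = 1.37e-11, edgeR). OGD/R lowered Ccl4 by 0.14 on the log2 scale in shCtrl cells (adjusted p = 0.0354, edgeR), and this call was lost without shCtrl-CTRL replicate 1 or 2 or shCtrl-OGDR replicate 1, with values of −0.13, −0.13 and −0.077. In shAnxa2 cells the change was −0.043, with a 95% interval from −0.16 to 0.076, and the interaction was 0.10, with an interval from −0.069 to 0.27.

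Ccl9, a CCR1 ligand of mice, was the 1 member that fell after OGD/R in both lines. Its level was 27.4, 27.6 and 24.4 CPM in shCtrl-CTRL, 17.2, 19.8 and 18.5 CPM in shCtrl-OGDR, 15.8, 17.1 and 12.9 CPM in shAnxa2-CTRL and 11.8, 12.5 and 10.7 CPM in shAnxa2-OGDR. The 4 groups followed in this order without overlap. OGD/R lowered Ccl9 1.43-fold in shCtrl cells (adjusted p = 3.97e-05, edgeR) and 1.30-fold in shAnxa2 cells (adjusted p = 0.0039, edgeR). It was 1.74-fold lower in shAnxa2 than in shCtrl cells without OGD/R (adjusted p = 1.47e-07, edgeR) and 1.58-fold lower after it (adjusted p = 3.87e-06, edgeR). The interaction was 0.13, with a 95% interval from −0.16 to 0.43. Of the 5 members called after OGD/R in both lines, the other 4, namely Ccl2, Ccl7, Ccl3 and Cxcl2, changed in opposite directions, as did 98.6% of all genes called in both. Ccl9 was 1 of 33 genes that were lower in both.

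Ccl5, or RANTES, which attracts T cells and monocytes, had few counts, with 6, 11 and 8 in shCtrl-CTRL, 15, 16 and 11 in shCtrl-OGDR, 10, 15 and 18 in shAnxa2-CTRL and 13, 14 and 6 in shAnxa2-OGDR. The shCtrl-CTRL libraries were at 0.251 to 0.403 CPM, below the 0.563 to 0.611 CPM of shCtrl-OGDR. The OGD/R change in shCtrl cells was 0.88 on the log2 scale and did not pass (adjusted p = 0.0661, edgeR). The difference between untreated lines, 1.01 (standard error 0.408, adjusted p = 0.0368, edgeR), did not pass without shCtrl-CTRL replicate 1 or 3 or shAnxa2-CTRL replicate 2 or 3. It also did not pass by DESeq2 (adjusted p = 0.0664) or without the filter on low counts (adjusted p = 0.0862, edgeR). The interaction was −1.23 (adjusted p = 0.0558, edgeR), and passed with limma-voom (adjusted p = 0.0409).

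Cxcl2 encodes a chemokine that attracts neutrophils through CXCR2. It had 34, 27 and 24 counts in shCtrl-CTRL, 79, 73 and 74 in shCtrl-OGDR, 625, 625 and 693 in shAnxa2-CTRL and 363, 448 and 263 in shAnxa2-OGDR. These correspond to 1.42, 0.989 and 0.882 CPM, 3.09, 2.79 and 3.79 CPM, 30.6, 30.1 and 27.5 CPM, and 18.5, 17.8 and 12.8 CPM. The 4 groups did not overlap, and both shAnxa2 groups were above both shCtrl groups. Untreated shAnxa2 cells had 26.9-fold more Cxcl2 than untreated shCtrl cells (log2 fold change 4.75, standard error 0.166, adjusted p = 5.19e-17, edgeR). Only 4 of the 11626 genes had a larger log2 fold change in that comparison. After OGD/R the difference was 5.14-fold (2.36, standard error 0.148, adjusted p = 8.33e-13, edgeR). OGD/R raised Cxcl2 2.92-fold in shCtrl cells (adjusted p = 1.79e-06, edgeR) and lowered it 1.79-fold in shAnxa2 cells (adjusted p = 1.21e-06, edgeR). The interaction was −2.39 (standard error 0.250, adjusted p = 7.28e-09, edgeR).

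Cxcl10, or IP-10, is an interferon-inducible ligand of CXCR3. It had 43, 45 and 39 counts in shCtrl-CTRL, 35, 26 and 25 in shCtrl-OGDR, 44, 34 and 47 in shAnxa2-CTRL and 48, 56 and 41 in shAnxa2-OGDR. The shCtrl-OGDR libraries were lowest, at 0.992 to 1.37 CPM. After OGD/R, Cxcl10 was 1.83-fold higher in shAnxa2 than in shCtrl cells (adjusted p = 0.00172, edgeR). The OGD/R changes were −0.42 in shCtrl cells (95% interval −0.91 to 0.061) and 0.24 in shAnxa2 cells (−0.21 to 0.68), and neither passed. The interaction was 0.66 (adjusted p = 0.0687, edgeR).

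Cxcl16, a membrane-anchored ligand of CXCR6 that is shed by ADAM10, passed in none of the comparisons. Its counts were 29, 28 and 19 in shCtrl-CTRL, 23, 15 and 13 in shCtrl-OGDR, 14, 28 and 19 in shAnxa2-CTRL and 23, 26 and 24 in shAnxa2-OGDR. The log2 differences were −0.44 and 0.28 for OGD/R in shCtrl and shAnxa2 cells, and −0.076 and 0.64 between the lines without and after OGD/R. The 95% interval of the last ran from −0.045 to 1.33. Cxcl16 shares 552 bases with Zmynd15 on the opposite strand, which had 27 to 65 counts. Ccl2 and Cxcl10 also lie within or across genes of the opposite strand, Gm17268 (0 to 2 counts) and Art3 (1 to 9 counts). Whether the authors' counting used strand is not given in the sources used here, so reads of such pairs may not have been separated.

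The difference between the lines in the OGD/R change was called for 5 of the 10 genes, where 70% of all genes tested were called, 34.9% positive and 35.1% negative. It was positive for Ccl2, Ccl7 and Ccl12, negative for Cxcl2 and Ccl3, and did not pass for Ccl4, Ccl9, Ccl5, Cxcl10 and Cxcl16. The median interaction was 0.40 over the 10 genes and −0.0061 over all genes.

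**Figure D3:**
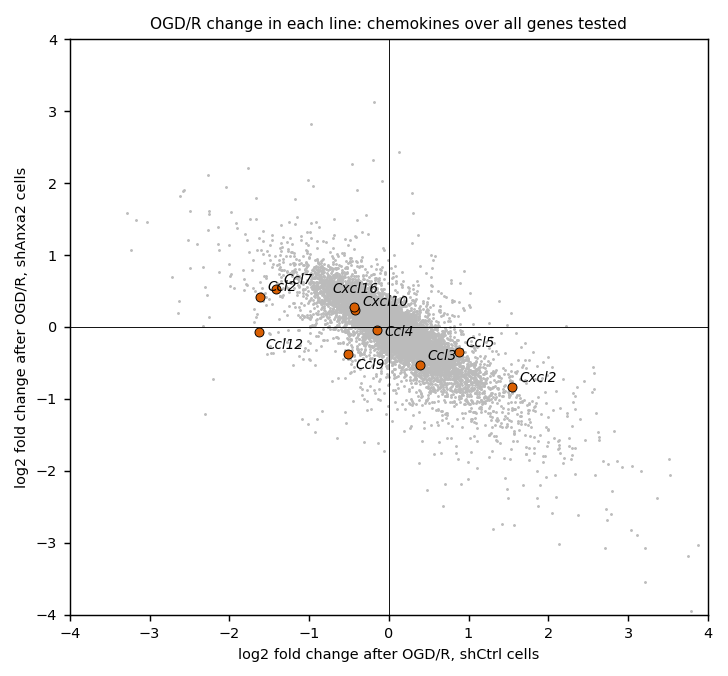
Log2 fold change with OGD/R, of shCtrl cells on the horizontal axis and of shAnxa2 cells on the vertical axis, with orange points for the 10 chemokines and gray points for all other named genes tested (10 of 11614 lie outside the axes). Ccl2 and Ccl7 lie at the upper left, Cxcl2 and Ccl3 at the lower right, and Ccl9 at the lower left at −0.51 and −0.38.

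The order of group levels differed between genes. Ccl2 was highest in shAnxa2-OGDR and lowest in shCtrl-OGDR, and the untreated groups between them, at means of 122 and 117 CPM, did not differ beyond their spread (adjusted p = 0.639, edgeR). Ccl7 had the same order at both ends. Cxcl2 fell from shAnxa2-CTRL (29.4 ± 1.63 CPM, SD, n = 3) through shAnxa2-OGDR (16.4 ± 3.14) and shCtrl-OGDR (3.22 ± 0.515) to shCtrl-CTRL (1.10 ± 0.285), with each step past the test. Ccl3 had the same order of groups, but shAnxa2-OGDR and shCtrl-OGDR did not differ by the test. For Ccl5, Cxcl10 and Cxcl16, no neighbors in the order of levels differed by the test.

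Patterns were compared by Pearson correlation of log2(CPM + 0.1) over the 12 libraries. The search covered genes averaging 1 CPM or more outside the chemokine, pathway and marker lists. Genes without a name or with a predicted or clone-type name were left out. The genes with patterns most like the members were taken from the rest. For Ccl2 these were Cdkl2 (0.99) and Bmpr1a (0.99), and for Ccl7 Slc35b1 (0.98) and Drg2 (0.98). Fxyd2 (0.98) and Fam167b (0.98) were most like Cxcl2, Socs2 (0.97) and Tgds (0.96) most like Ccl3, and Ablim1 (0.99) and Ets2 (0.98) most like Ccl4. Gid8 (0.97) and Hinfp (0.97) were most like Ccl9, and Trip10 (0.94) and Kif21a (0.94) most like Cxcl10. The low-count genes had lower values, with Cdc42bpg (0.89) for Ccl12, Zmynd15 (0.92) for Ccl5 and Zfp942 (0.90) for Cxcl16. The points share the group means, so these values are descriptions. Among the members, Cxcl2 was at 0.89 with Ccl4, 0.86 with Ccl3 and −0.83 with Ccl9, while Ccl2 and Ccl3 were at 0.10.

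Of 28 further chemokine genes, 6 passed the filter, namely Ccl6, Ccl24, Ccl25, Cxcl14, Cxcl17 and Pf4. Of these 6, none rose and 4 fell after OGD/R in shCtrl cells, 1 rose and 1 fell in shAnxa2 cells, 1 was higher and 3 were lower in shAnxa2 cells without OGD/R, and 3 were higher and none lower after it. The shares of all genes passing in these comparisons were 63.4%, 55%, 59.2% and 67.9%. The median log2 fold changes of the 6 were −0.53, 0.22, −0.34 and 0.065, and those of all genes 0.0045, 0.0044, 0.00069 and −0.0033. Ccl6, a CCR1 ligand that lies between Ccl9 and Ccl3, had means of 30.1, 16.8, 25.4 and 34.7 CPM in shCtrl-CTRL, shCtrl-OGDR, shAnxa2-CTRL and shAnxa2-OGDR. It fell by 0.84 on the log2 scale after OGD/R in shCtrl cells and was 1.05 higher in shAnxa2 cells after OGD/R. Cxcl14 was lower by 1.13 in untreated shAnxa2 cells. Ccl24, with 2 to 24 counts per library, reached 0.5 CPM in the 3 shCtrl-CTRL libraries alone and so passed the filter through the group where it was highest. It is among the 4 that fell in shCtrl cells and the 3 that were lower without OGD/R, and it enters the medians. Its lower level against shCtrl-CTRL was therefore favored by the filter, and nothing is drawn from it.

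Of the 24 receptor genes, 10 passed the filter. The receptors of several members were near 0, with 0 to 3 counts per library for Ccr2, 0 to 15 for Ccr1 and 2 to 16 for Cxcr6. Cxcr2, the receptor of Cxcl2, had 11 to 31 counts and passed in no comparison. Among the 10, 4 rose and 2 fell after OGD/R in shCtrl cells, 2 rose and 4 fell in shAnxa2 cells, 4 were higher and 2 lower in shAnxa2 cells without OGD/R, and 2 were higher and 3 lower after it. Against the 63.4%, 55%, 59.2% and 67.9% of all genes that passed, these counts are 6, 6, 6 and 5 of 10. Their median log2 fold changes were 0.059, −0.54, 0.35 and −0.63. Ccrl2, an atypical receptor that binds chemerin, rose by 2.63 on the log2 scale after OGD/R in shCtrl cells and fell by 1.58 in shAnxa2 cells. Cxcr3, the receptor of Cxcl10, fell by 1.67 in shCtrl cells and rose by 1.79 in shAnxa2 cells. Cxcr1 had 1, 1 and 1 counts in shCtrl-CTRL, 64, 50 and 26 in shCtrl-OGDR, 38, 30 and 40 in shAnxa2-CTRL and 4, 1 and 0 in shAnxa2-OGDR. Ccr10 was higher by 1.69 and Cxcr5 lower by 1.17 in untreated shAnxa2 cells. Both had few counts per library, 7 to 56 for Ccr10 and 1 to 30 for Cxcr5.

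**Figure D4:**
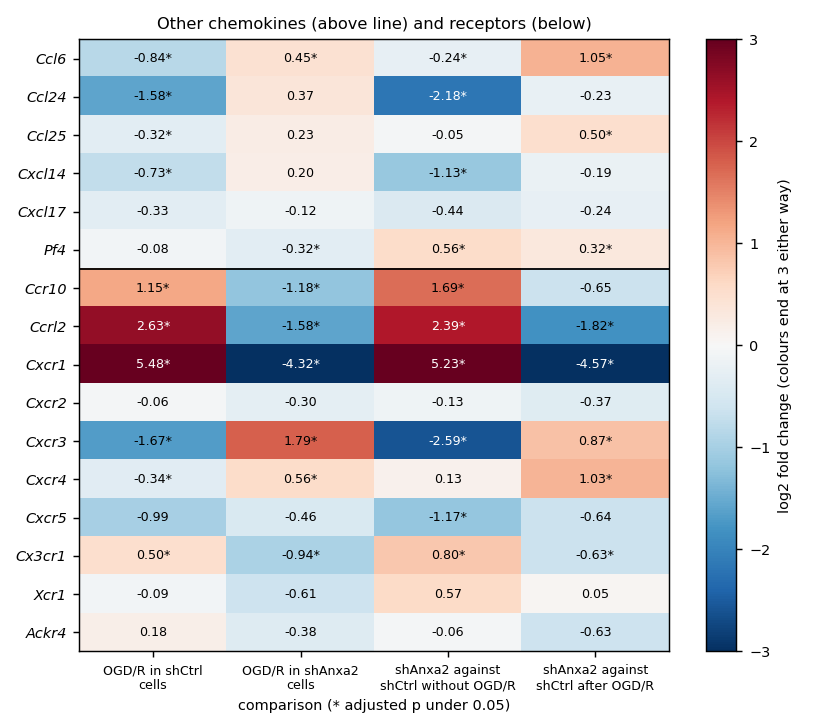
Log2 fold changes of the 6 other chemokines and 10 receptors tested (rows) in the 4 pairwise comparisons (columns), with red for higher, blue for lower and an asterisk for an adjusted p under 0.05 by edgeR. Ccrl2 is at 2.63 and −1.58 for OGD/R in shCtrl and shAnxa2 cells, Cxcr3 is at −1.67 and 1.79, and the values of Cxcr1 rest on groups with 0 to 4 counts.

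Of the genes that act with chemokines, those of receptor signaling had 21 of 22 genes tested. In shCtrl cells 12 rose and 6 fell after OGD/R, in shAnxa2 cells 4 rose and 9 fell, and between the lines 7 were higher and 7 lower in shAnxa2 cells without OGD/R, with 5 and 9 after it. Among all genes, 63.4%, 55%, 59.2% and 67.9% passed in the same order. The medians of the 21 genes were 0.15, −0.067, 0.019 and −0.063 on the log2 scale. Rgs1 and Rgs2, which switch off G protein signaling, fell by 1.56 and 1.45 on the log2 scale in shCtrl cells and rose by 0.70 and 0.88 in shAnxa2 cells. Fgr, a Src family kinase, was 1.52 higher in untreated shAnxa2 cells. This rests on few counts, 2, 11 and 11 in shCtrl-CTRL and 16, 12 and 31 in shAnxa2-CTRL. Grk3, a receptor kinase, was lower by 1.21 in shAnxa2 cells after OGD/R.

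All 23 listed transcription factors and regulators of chemokine genes were tested. In shCtrl cells 14 rose and 6 fell with OGD/R, and in shAnxa2 cells 5 rose and 8 fell. Between the lines, 10 were higher and 4 lower in shAnxa2 cells without OGD/R, and 7 and 12 after it. All genes passed at 32.4% higher and 31% lower with OGD/R in shCtrl cells and 28.2% and 26.8% in shAnxa2 cells, and at 29.5% and 29.7% between the lines without OGD/R and 33.8% and 34.2% after it. The list medians were 0.19, −0.077, 0.078 and −0.12 on the log2 scale. Nfkbiz, an NF-κB cofactor, had means of 59.8, 174, 186 and 99.4 CPM in shCtrl-CTRL, shCtrl-OGDR, shAnxa2-CTRL and shAnxa2-OGDR. Nfkbia, the inhibitor IκBα, was 1.23 higher on the log2 scale in untreated shAnxa2 cells, as was Tnfaip3, the NF-κB inhibitor A20, by 1.18. Relb, a subunit of NF-κB, rose by 1.12 after OGD/R in shCtrl cells. Fos, a subunit of AP-1, fell by 2.32 in shCtrl cells and rose by 0.83 in shAnxa2 cells.

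A list of 9 genes covered chemokine mRNA decay. It also held Elavl1, which stabilizes mRNAs, and Tnip1, an NF-κB inhibitor. Of the 9, 3 rose and 4 fell after OGD/R in shCtrl cells, and 4 rose and 3 fell in shAnxa2 cells. In untreated shAnxa2 cells 2 were higher, Tnip1 among them, and 6 lower. After OGD/R, 5 were higher and 2 lower in shAnxa2 cells. Medians were −0.21, 0.22, −0.29 and 0.19 on the log2 scale, where 63.4%, 55%, 59.2% and 67.9% of all genes passed. Zc3h12a, the endonuclease Regnase-1, was 1.36 higher on the log2 scale in untreated shAnxa2 cells. Zfp36, or tristetraprolin, was lower by 1.08 in the same comparison, and Zfp36l1 was lower by 1.34 in shAnxa2 cells after OGD/R. Of 11 genes of chemokine shedding and cleavage, 9 were tested. With OGD/R, 4 rose and 2 fell in shCtrl cells, and 2 rose and 4 fell in shAnxa2 cells. In shAnxa2 cells 5 were higher and 3 lower without OGD/R, and 4 higher and 3 lower after it. These 9 genes had medians of 0.11, −0.10, 0.19 and −0.041 on the log2 scale, beside the same shares of all genes. Mmp12, a macrophage metalloprotease, fell by 2.27 in shCtrl cells and rose by 2.12 in shAnxa2 cells after OGD/R. Mmp2 was 1.54 higher in untreated shAnxa2 cells. Mmp13 had 15 to 28 counts in shCtrl-CTRL, 0 or 1 in shCtrl-OGDR, 1 to 4 in shAnxa2-CTRL and 7 to 14 in shAnxa2-OGDR. It reached 0.5 CPM in 4 libraries, those of shCtrl-CTRL and 1 of shAnxa2-OGDR, and so passed the filter through the group where it was highest. It is among the 2 that fell in shCtrl cells and the 3 that were lower without OGD/R, and it enters the medians. Its lower level against shCtrl-CTRL was therefore favored by the filter, and nothing is drawn from it.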

How the data were processed

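RNA of BV2 cells was sequenced in 12 libraries. The authors deposited raw counts of reads per gene for 21834 genes, beside 12 per-sample columns of counts normalized by DESeq2, which were not used. The submitters' processing notes name HISAT2 2.0.4 and mm39. The counting program for these cells and the use of strand are not given in the sources used here. Libraries were grouped by title.

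Counts were analyzed with edgeR 4.0.16 in R 4.3.3, normalized by TMM. Genes needed 0.5 CPM in 3 or more libraries, which left 11626. A single quasi-likelihood model was fitted to the 12 libraries, with p-values adjusted by Benjamini-Hochberg. Calls needed an adjusted p under 0.05. Standard errors are the log2 fold change divided by the square root of F. CPM values are scaled by library total and TMM factor. Total counts of 19521877 to 27288843 per library set the depth, and the common biological coefficient of variation was 5.35%. The scripts were tested on simulated data. Lengths come from the GENCODE annotation of GRCm38 and promoters from RefSeq.

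The study's methods state no test for these cells. The members and lists were chosen with earlier results of these data known. All members are named, and of each other list up to 5 genes with the largest called change of at least 1 on the log2 scale in any pairwise comparison. Some genes of the lists are not reported here. Marker lists covered microglia and macrophages, neurons, astrocytes, oligodendrocytes, endothelial cells, T cells and fibroblasts. Alternatives were DESeq2 1.42.0 and its size factors, library totals only, limma 3.58.1 (voom), no filter or 1 CPM, a replicate block, only the 2 groups compared, an unadjusted p under 0.05 with a log2 fold change of at least 1, a pseudocount of 1 for pattern likeness, and leaving out each library. Python 3.11.15 with matplotlib 3.10.9 drew the plots.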

Additional observations from a re-analysis of the deposited data

Results flagged for a closer look

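For 5 chemokines the response to OGD/R differed between the lines by the interaction test in edgeR. The difference, as the log2 change in shAnxa2 cells minus that in shCtrl cells, was 2.03 for Ccl2, 1.94 for Ccl7 and 1.56 for Ccl12, with changes of −1.61, −1.42 and −1.63 in shCtrl cells and 0.42, 0.53 and −0.076 in shAnxa2 cells. It was −2.39 for Cxcl2 and −0.92 for Ccl3, which changed by 1.55 and 0.39 in shCtrl cells and by −0.84 and −0.53 in shAnxa2 cells. Over all genes tested, 70% had such a difference. Ccl2, Ccl7, Ccl3 and Cxcl2 changed in opposite directions past the test in both lines, while Ccl12 passed in shCtrl cells only.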

How the results depend on the processing

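Of 1034 values of single chemokines under the alternatives, 992 kept their direction and their side of the threshold, 29 no longer passed, 5 newly passed and 8 changed sign. Of the 29, 15 came from the limit of at least 1 on the log2 scale with an unadjusted p, under which 4, 0, 2 and 4 chemokines were called (OGD/R in shCtrl cells, OGD/R in shAnxa2 cells, lines without and after OGD/R) in place of 7, 5, 5 and 7. Over all genes these limits gave 798, 442, 675 and 1183 calls in place of 7373, 6392, 6882 and 7898, and 2523 in place of 8136 for the interaction. Signs changed only when 1 library was left out and only for values that had not passed. With OGD/R in shAnxa2 cells, Ccl4 ranged from −0.10 to 0.015 (without shAnxa2-CTRL replicate 3) and Ccl12 from −0.58 to 0.29 (without shAnxa2-OGDR replicate 2). Between untreated lines, Cxcl16 ranged from −0.42 to 0.091 and was positive without shCtrl-CTRL replicate 1 (0.091), shAnxa2-CTRL replicate 1 (0.085) or shAnxa2-CTRL replicate 3 (0.067). Ccl12 ranged from −0.0017 (without shCtrl-CTRL replicate 3) to 0.20 and Ccl2 from −0.097 (without shAnxa2-CTRL replicate 2) to 0.18. Between the lines after OGD/R, Ccl5 ranged from −0.43 to 0.030 (without shAnxa2-OGDR replicate 3). The causes were not tested. Leaving out 1 library gave 6 to 7, 5 to 5, 4 to 5, 6 to 7 and, for the interaction, 4 to 6 calls.

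With the replicate number as a replicate block, 7, 5, 5, 7 and 5 chemokines were called, as without it, and no call of a single chemokine changed. Same-numbered libraries of different groups had deviations that correlated at −0.05 to 0.13, with 1 of 18 pairs above 0.1, so the numbers were not taken to pair libraries. Ccl5 failed the filter of 1 CPM and gave no value there. With a pseudocount of 1, the second most similar gene changed to Sdad1 for Ccl7 and Acly for Ccl12, and both changed for Cxcl2, to Gch1 and Slc6a12. Depth limits Ccl5, Ccl12, Cxcl16 and Cxcl10 most. The interaction of Ccl5 also passed without shCtrl-CTRL replicate 2, shAnxa2-CTRL replicate 1 or shAnxa2-OGDR replicate 1.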
